A study of Mus musculus with 16 samples.

Results

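The genes described here encode glutamate receptors and proteins of the postsynaptic density, the protein mesh under the membrane of an excitatory synapse. They were 44 genes chosen by name, of 54532 entries in the count table. Each of the 44 was detected in every library, with at least 67 counts, and all 44 were among the 17736 genes that passed the filter on low counts and were tested. The study sequenced bulk RNA from the brains of female mice of 9 months in 16 libraries, 4 per group, to compare mice that carry an added tau gene (Tau+) with mice that do not (Tau-), with and without Ch25h, the gene of cholesterol 25-hydroxylase. The groups were Ch25h+/+ Tau- (normal Ch25h, no added tau gene), Ch25h+/+ Tau+ (normal Ch25h, added tau gene), Ch25h-/- Tau- (Ch25h absent, no added tau gene) and Ch25h-/- Tau+ (Ch25h absent, added tau gene). The mouse tau gene Mapt was present in all groups, at 444 to 591 CPM (counts per 1000000 counts of the library) in the Tau- libraries and 468 to 560 CPM in the Tau+ libraries. No agent was given per the labels, and the tau transgene, its promoter and the way Ch25h was deleted are not given in the sources used here.

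Glutamate released at an excitatory synapse opens AMPA receptors, which carry the fast current, and NMDA receptors, which let calcium into the spine. Kainate receptors modulate release and excitability, and metabotropic receptors act through G proteins on slower signalling. Beneath them, scaffold proteins of the Dlg (PSD-95), Dlgap (SAPAP), Shank and Homer families tie the receptors to each other and to the cytoskeleton. CaM kinase II reads the calcium signal, neurogranin holds calmodulin, the Cacng proteins (TARPs) escort AMPA receptors to the membrane, and neuroligins join the postsynaptic membrane to the axon terminal.

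Library totals ran from 15530352 to 25602500 counts, a depth at which 43 of the 44 genes had a mean of at least 100 counts in every group. Levels are in CPM. As a check of the labels, Ch25h gave no count in the 8 Ch25h-/- libraries (a limit of 3 counts is 0.117 to 0.195 CPM there) and 5 to 30 counts in each Ch25h+/+ library. Prnp lay at 1414 to 1935 CPM in the Tau+ libraries and at 708 to 839 CPM in the Tau- libraries. The sample labels name the frontal cortex and the series text names the hippocampus. In each library 8 markers of cortical excitatory neurons summed to 1924 to 2577 CPM, and 6 hippocampal markers to 33.3 to 74.7 CPM. Most of the cortical sum was Slc17a7, with a mean of 1519 CPM over the libraries. How specific each marker is to its region was not tested. A count assigned to ribosomal RNA (CT010467.1) split the libraries nearly along the Ch25h genotype, with 2289 to 5684 CPM in 7 of the 8 Ch25h-/- libraries (called rRNA-rich below) and 111 to 475 CPM in Ch25h-/- Tau+ replicate 1 and all Ch25h+/+ libraries (rRNA-poor). In Ch25h+/+ Tau+ replicate 1, the 44 genes together made 12270 CPM against 13469 to 15218 CPM in the other 15 libraries. It held the lowest value of its group for 25 of the 44 genes, as did Ch25h+/+ Tau- replicate 4 in its own group. Ch25h-/- Tau+ replicate 1 and Ch25h+/+ Tau+ replicate 1 stand apart, the first by its rRNA count and the second by the sum over the 44 genes. In bulk tissue, fewer cells of a type and less RNA per cell cannot be told apart.

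To set the differences against the normal state of this tissue, the levels were compared between genes in CPM per kilobase of exon, in Ch25h+/+ Tau- libraries unless stated. Of the calcium-signalling genes, Nrgn (neurogranin) had the highest mean of the 44 genes at 1154 CPM per kilobase, and Camk2b, the lowest of the 3 genes of this role, 103 CPM per kilobase. Among the 13 scaffolds, Dlgap3, a SAPAP protein that links PSD-95 to Shank, was highest at 147 CPM per kilobase and Homer3 lowest at 1.64 CPM per kilobase. Gria1 led the 4 AMPA receptor subunits at 49.2 CPM per kilobase and Gria4 was lowest at 15.2 CPM per kilobase. The orders by CPM per kilobase depend on the divisor, the merged length of all annotated exons of a gene. It was 15548 bases for Gria2 and 6043 bases for Gria1. In CPM without that division, Gria2 at 521 CPM stood above Gria1 at 297 CPM, and Dlg4 at 902 CPM above Dlgap3 at 664 CPM.

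Grin1, the obligate NMDA receptor subunit, led its 6 genes at 56.3 CPM per kilobase, and Grin3a, a subunit that lowers calcium entry, was lowest at 3.08 CPM per kilobase. Of the 6 kainate and delta receptor subunits, Grik5 was highest at 71.4 CPM per kilobase and Grik1 lowest at 1.96 CPM per kilobase. The 6 metabotropic receptors ran from Grm2, a presynaptic autoreceptor, at 19.4 CPM per kilobase to Grm8 at 1.5 CPM per kilobase.

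Cacng3 at 48.1 CPM per kilobase and Cacng2 (stargazin) at 19.97 CPM per kilobase bounded the 3 AMPA receptor auxiliary subunits. Nlgn2, the neuroligin of inhibitory synapses, was highest of the 3 neuroligins at 71.0 CPM per kilobase and Nlgn1, that of excitatory synapses, lowest at 3.93 CPM per kilobase. The leading gene changed with the group in 2 roles. Grm3 at 18.3 to 20.7 CPM per kilobase led the metabotropic receptors in the 3 other groups, and Cacng8 at 43.2 CPM per kilobase led the auxiliary subunits in Ch25h+/+ Tau+. Nlgn3 at 5.19 CPM per kilobase was the lowest neuroligin in Ch25h-/- Tau+. No gene moved by more than 6 ranks among the 44 between group means. Within a group the median coefficient of variation of a gene's CPM was 8.64%.

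**Figure D1:**
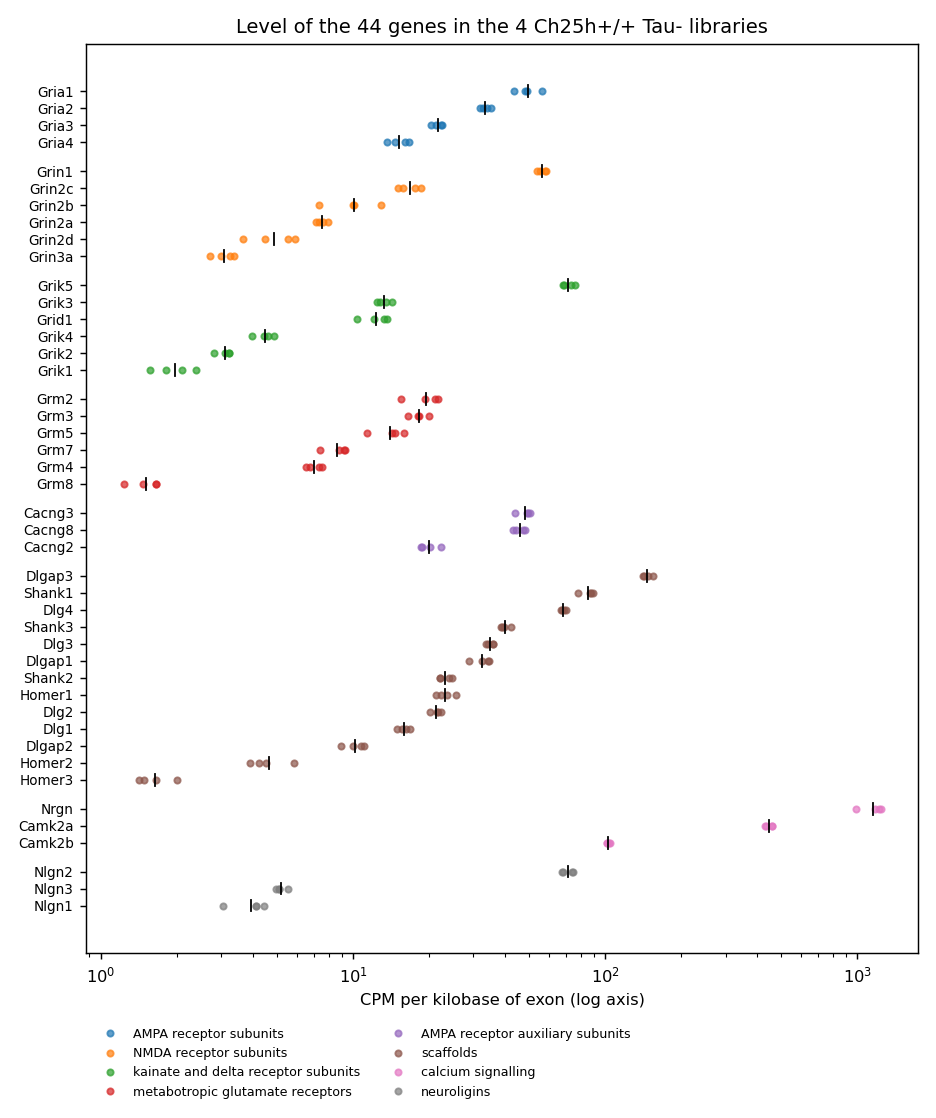
Level of each of the 44 genes in the 4 Ch25h+/+ Tau- libraries, in CPM per kilobase of exon on a log axis, ordered within 8 roles. Points are libraries and black ticks are means, which run from 1.5 for Grm8 to 1154 for Nrgn.

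The reading of these levels depends on how the genes were counted. The counting program and its use of strand are not given in the sources used here, so counts of genes whose exons overlap another gene are uncertain. In GENCODE M21, Nlgn3 shared 41.2% of its exon bases with Gm21986 on the same strand, Homer3 shared 25.4% with the antisense gene Ddx49, and Grin1 shared 13.5% with Grin1os. Grin2d, Grm2 and Nlgn1 shared 9.66%, 9.60% and 9.16% with antisense genes. The other 38 genes shared at most 5.86%.

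Promoters are shown for 3 genes past the threshold below. Homer1 was lower in Tau+ mice with normal Ch25h, and Gria2 and Grik2 were higher without Ch25h in Tau+ mice. The promoters are the 250 bases before the start of transcription in RefSeq (GRCm38.p6), printed 5′ to 3′ on the strand of the gene. The capitals in them mark TGACG, the core of the cyclic AMP response element (CRE), through which CREB acts, searched on both strands (TGACG or CGTCA).

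Homer1, chr13:93303507-93303756, plus strand: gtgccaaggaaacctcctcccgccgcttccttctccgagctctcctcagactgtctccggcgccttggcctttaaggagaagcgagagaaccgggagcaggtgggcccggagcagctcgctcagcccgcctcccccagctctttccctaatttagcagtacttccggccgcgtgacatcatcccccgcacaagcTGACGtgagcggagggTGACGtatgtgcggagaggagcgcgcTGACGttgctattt

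Gria2, chr3:80802836-80803085, minus strand: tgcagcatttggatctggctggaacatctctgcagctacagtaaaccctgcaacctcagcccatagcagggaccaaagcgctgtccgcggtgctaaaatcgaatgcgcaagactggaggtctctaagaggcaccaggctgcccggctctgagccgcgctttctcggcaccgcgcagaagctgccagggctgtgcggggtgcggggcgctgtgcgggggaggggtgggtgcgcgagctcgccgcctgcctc

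Grik2, chr10:49788755-49789004, minus strand: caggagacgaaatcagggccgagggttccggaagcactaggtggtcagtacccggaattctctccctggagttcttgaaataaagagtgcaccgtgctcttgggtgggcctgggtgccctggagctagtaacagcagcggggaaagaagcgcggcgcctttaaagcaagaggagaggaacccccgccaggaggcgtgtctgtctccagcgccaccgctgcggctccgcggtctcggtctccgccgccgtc

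The Homer1 window held TGACG 3 times, and the Gria2 and Grik2 windows held it 0 times. Of all 32851 promoter windows of this length, 17.8% held the motif at least once and 0.688% held it 3 or more times. Promoter entries were matched for 30 of the 44 genes, in 45 windows, of which 5 held TGACG, 19 held the GC box GGGCGG and 3 held TATAAA. Over all windows GGGCGG was in 32.7% and TATAAA in 12.4%. GC content was 62.4% in the Homer1 window, 64.8% in the Gria2 window and 62.8% in the Grik2 window, while the longest transcripts of these genes had 36.9%, 36.8% and 37.9% GC. A match describes these letters and is not evidence of binding. Homer1 has 2 RefSeq windows, of which the one at the lower coordinate is shown.

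With normal Ch25h, Tau+ mice had a lower level of 1 of the 44 genes, Homer1, the scaffold that couples metabotropic receptors to calcium stores and to Shank (gene on chromosome 13, 93299635 to 93405129, plus strand, GRCm38). In the order of replicates 1 to 4, Homer1 had 255, 282, 267 and 306 CPM in Ch25h+/+ Tau- and 145, 244, 177 and 184 CPM in Ch25h+/+ Tau+. The groups did not overlap. Its mean fell from 278 ± 22.1 CPM (SD, n = 4) to 187 ± 41.3 CPM (SD, n = 4), a log2 fold change of -0.57 (SE 0.13, adjusted p = 0.0231 in edgeR's quasi-likelihood test). Over all genes tested 1.56% passed this threshold of 0.05, and 0.0902% passed it as lower.

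The call depended on single libraries, while the log2 fold change ran from -0.71 to -0.46 over the 16 fits that left out 1 library. Homer1 was no longer past the threshold without Ch25h+/+ Tau+ replicate 1 (log2 fold change -0.46, adjusted p = 0.0561 in edgeR), replicate 3 (adjusted p = 0.0662) or replicate 4 (adjusted p = 0.0867), nor without Ch25h+/+ Tau- replicate 2 (adjusted p = 0.0656) or replicate 4 (adjusted p = 0.0903). With the 8 Ch25h+/+ libraries fitted alone the log2 fold change was -0.56, with adjusted p = 0.0973 in edgeR. In that fit 1.18% of all genes were called, without replicate 1 it was 1.65%, and without both libraries that stand apart, where Homer1 had adjusted p = 0.0588, it was 1.71%. DESeq2 and limma-voom called Homer1 and no other gene of the 44, and 2.39% and 2.81% of all genes. Counts per gene do not separate the short Homer1 form, which neuronal activity induces, from the long scaffold forms.

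None of the other 43 genes passed the threshold. In Ch25h+/+ mice, 32 of the 44 genes differed by less than 1.1-fold between Tau+ and Tau-, as did 10519 of all 17736 genes tested. Of the others, the scaffolds Homer3 and Shank2 were farthest from 0 after Homer1, at 0.33 (SE 0.20, adjusted p = 0.710 in edgeR) and -0.26 (SE 0.13, adjusted p = 0.610), and Shank2 was at -0.12 without Ch25h+/+ Tau+ replicate 1. An unadjusted p under 0.05 was reached by 2 genes, or 4.55%, against 9.38% of all genes tested, and the 2 groups did not overlap for 3 genes (Homer1, Dlg4 and Dlgap3), against a share of 5.86% of all genes. After Homer1 the smallest p-values were those of Cacng3, a TARP, with a log2 fold change of -0.19 (SE 0.08, adjusted p = 0.438 in edgeR), and of Dlg4.

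Dlg4, the gene of PSD-95, had 890, 928, 882 and 908 CPM in Ch25h+/+ Tau- and 786, 857, 831 and 814 CPM in Ch25h+/+ Tau+. These ranges did not overlap, and the log2 fold change was -0.13 (SE 0.07, adjusted p = 0.557 in edgeR), which did not pass the threshold. By sign, 35 of the 44 genes were below 0, with a median log2 fold change of -0.07 against -0.01 over all genes tested. Single libraries moved that median. Leaving out Ch25h+/+ Tau+ replicate 1 gave -0.03, and leaving out replicate 2 or 3 of that group gave -0.11. Of the Ch25h+/+ Tau- libraries, the median was -0.04 when replicate 1 was left out, -0.05 for replicate 2 and -0.11 for replicate 4.

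By role, all 4 AMPA receptor subunits, all 3 auxiliary subunits, all 3 calcium-signalling genes and 12 of 13 scaffolds had a log2 fold change below 0, and none but Homer1 passed the test. These counts, without Ch25h+/+ Tau+ replicate 1, were 3 of 4, 3 of 3, 2 of 3 and 7 of 13, and 29 of the 44 genes were below 0. Gria3, Camk2a and the scaffolds Dlg2, Shank1, Homer2, Dlgap1 and Dlgap2 were then above 0, at 0.01 to 0.09, and none passed the test. The NMDA receptor subunits were 3 above and 3 below 0. Pan-neuronal markers, 8 genes, were not past the threshold in any of the 5 comparisons, and summed to 6545 to 7370 CPM in Ch25h+/+ Tau+ against 6965 to 7314 CPM in Ch25h+/+ Tau-. By sign, 1 of 8 was above 0 in this comparison (median -0.05), as were 2 of 8 cortical excitatory neuron markers (-0.06). The cortical excitatory markers summed to 2307 to 2405 CPM in Ch25h+/+ Tau+ against 2475 to 2577 CPM in Ch25h+/+ Tau-, ranges that did not overlap. Microglia markers differed in the same contrast: all 6 were above 0, and 4 of the 6 passed the threshold as higher in Tau+ mice. The sum of the 6 was 441 to 559 CPM in Ch25h+/+ Tau+ against 292 to 312 CPM in Ch25h+/+ Tau-. The part of these markers in the Homer1 difference was not tested.

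Without Ch25h, the same comparison of Tau+ with Tau- found none of the 44 genes past the threshold in edgeR, while 2 had an unadjusted p under 0.05. Over all genes tested 0.0395% were called and 3.68% had an unadjusted p under 0.05. DESeq2 and limma-voom also called 0 of the 44, and 0.0789% and 0.0338% of all genes. Homer1 had 285, 273, 216 and 239 CPM in Ch25h-/- Tau- and 224, 249, 277 and 236 CPM in Ch25h-/- Tau+. These ranges overlapped. No gene of the 44 had groups without overlap, against 2.14% of all genes. Of the 44, 37 differed by less than 1.1-fold, as did 11470 of all 17736 genes tested.

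The 3 smallest p-values here belonged to Homer3, Grm8 and Grin3a. Homer3, a Homer scaffold at a low level, had 5.78, 5.59, 10.8 and 6.97 CPM in Ch25h-/- Tau- and 5.95, 5.52, 4.89 and 4.18 CPM in Ch25h-/- Tau+, a log2 fold change of -0.50 (SE 0.20, adjusted p = 0.99998 in edgeR). The highest of these 8 values was that of Ch25h-/- Tau- replicate 3, and without this library the log2 fold change was -0.25. Grm8, a presynaptic metabotropic receptor, had a log2 fold change of 0.30 (SE 0.12), and Grin3a of 0.17 (SE 0.12). Grin3a was at 0.06 when Ch25h-/- Tau- replicate 2 was left out and at 0.26 when Ch25h-/- Tau+ replicate 1 was. The median over the 44 genes was 0.01, as it was over all genes tested, and lay between -0.01 and 0.02 with any 1 library left out.

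The difference between the tau effects in Ch25h-/- and in Ch25h+/+ was tested as an interaction, and 0 of the 44 genes passed the threshold in edgeR, with 2 at an unadjusted p under 0.05. All genes tested gave 0.0338% called and 4.13% at an unadjusted p under 0.05. DESeq2 called 0 of the 44 and 0.310% of all genes, and limma-voom 0 of the 44 and 0.0338% of all genes. For Homer1 the interaction was 0.53 on the log2 scale (SE 0.18, adjusted p = 0.651 in edgeR), for Homer3 it was -0.83 (SE 0.29, adjusted p = 0.722) and for Dlgap3 0.23 (SE 0.12, adjusted p = 0.99996), or 0.15 without Ch25h-/- Tau+ replicate 1. So the lower Homer1 level in Tau+ mice was not shown to differ between the Ch25h genotypes. By sign, 35 of 44 interactions were above 0, with a median of 0.10 against 0.02 over all genes. When Ch25h+/+ Tau+ replicate 1 was left out, 27 of 44 were above 0 and the median was 0.04, against 0.00 over all genes. Of the pan-neuronal markers 8 of 8 interactions were above 0 (median 0.08), and of the cortical excitatory neuron markers 6 of 8 (0.12). The same Ch25h+/+ Tau+ libraries enter this comparison and the tau comparison above.

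**Figure D2:**
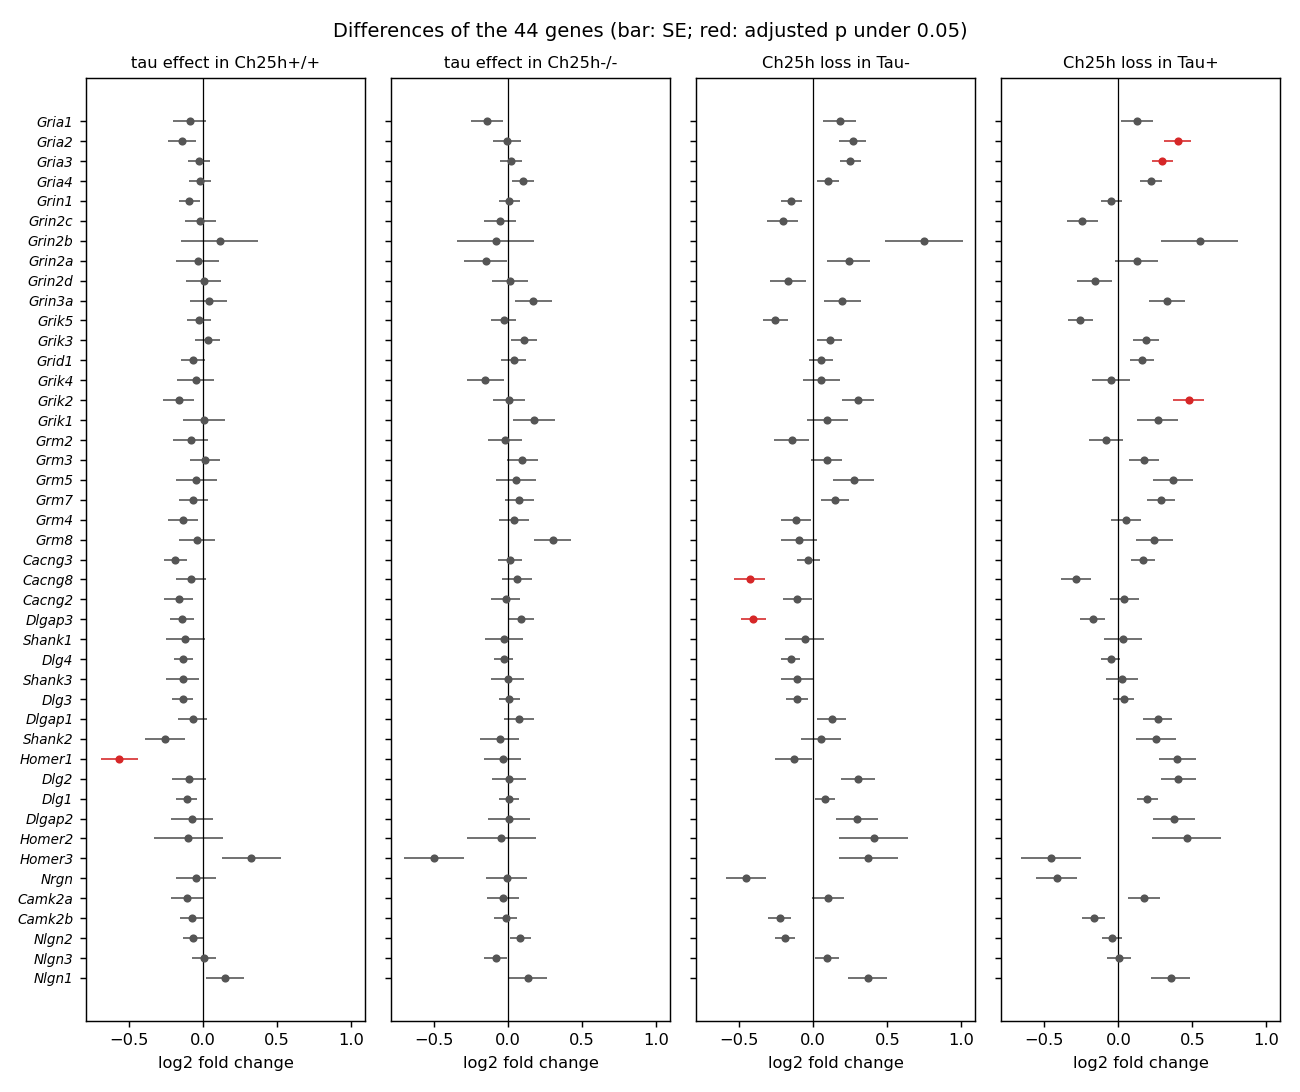
Log2 fold change of each of the 44 genes in 4 comparisons, ordered by role as in the plot of levels, with bars of 1 SE and genes past the adjusted p of 0.05 in red. Homer1 stands alone in the tau comparison of Ch25h+/+ mice at -0.57, none is red for tau in Ch25h-/- mice, and the 2 comparisons of Ch25h loss have 2 and 3 red points.

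Loss of Ch25h in Tau- mice came with lower levels of 2 of the 44 genes, the scaffold Dlgap3 and the AMPA receptor auxiliary subunit Cacng8 (TARP gamma-8). Of all genes tested, 1.03% passed in this comparison, and 0.812% passed as lower. Dlgap3 had 646, 698, 641 and 669 CPM in Ch25h+/+ Tau- and 523, 500, 447 and 534 CPM in Ch25h-/- Tau-. The groups did not overlap, and the log2 fold change was -0.41 (SE 0.08, adjusted p = 0.0323 in edgeR).

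Cacng8 had 104, 113, 111 and 101 CPM in Ch25h+/+ Tau- and 69.2, 69.3, 84.5 and 95.4 CPM in Ch25h-/- Tau-. Again the ranges were separate. The log2 fold change was -0.43 (SE 0.10), and the adjusted p in edgeR was 0.04996, just under the threshold. In 9 of the 16 fits that left out 1 library Dlgap3 lost the call, and in 13 of them Cacng8 did, with log2 fold changes between -0.44 and -0.35 for Dlgap3 and between -0.53 and -0.37 for Cacng8. Dlgap3 lost it without Ch25h+/+ Tau+ replicate 4, any 1 of Ch25h+/+ Tau- replicates 1 to 4, Ch25h-/- Tau+ replicate 4 or any 1 of Ch25h-/- Tau- replicates 1 to 3 (adjusted p from 0.0517 to 0.148 in edgeR). Cacng8 kept it without Ch25h+/+ Tau+ replicate 1, Ch25h-/- Tau+ replicate 1 or Ch25h-/- Tau- replicate 4, and its adjusted p was 0.0546 to 0.148 in the other 13 fits.

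A further 11 genes had an unadjusted p under 0.05 without passing the adjusted threshold. With Dlgap3 and Cacng8 they made 13 of 44, or 29.5%, against 20.9% of all genes. The groups did not overlap for 14 of the 44 genes, and a share of 16.2% of all genes had no overlap. Gria3, an X-linked AMPA receptor subunit, had 222, 219, 211 and 202 CPM in Ch25h+/+ Tau- and 256, 245, 268 and 247 CPM in Ch25h-/- Tau-, a log2 fold change of 0.25 (SE 0.07, adjusted p = 0.0775 in edgeR) with no overlap.

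Grin2b, the NMDA receptor subunit that predominates early in development, had 251, 320, 249 and 182 CPM in Ch25h+/+ Tau- and 493, 332, 487 and 368 CPM in Ch25h-/- Tau-. All 4 Ch25h-/- values lay above all 4 Ch25h+/+ values. Its log2 fold change was 0.75, the highest of the 44 in this comparison, but with an SE of 0.26 and an adjusted p of 0.122 in edgeR. Nrgn was at the other end, with 1431, 1775, 1702 and 1797 CPM against 991, 1426, 1031 and 1445 CPM, a log2 fold change of -0.45 (SE 0.14, adjusted p = 0.0864 in edgeR). Its groups overlapped by 1 library, Ch25h-/- Tau- replicate 4. Over the 44 genes 25 had a log2 fold change above 0, and the median was 0.07 against 0.01 over all genes. The median was 0.02, with 24 genes above 0, when Ch25h+/+ Tau- replicate 4 was left out.

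Loss of Ch25h in Tau+ mice came with higher levels of 3 of the 44 genes, all ionotropic receptor subunits: Gria2, which makes AMPA receptors impermeable to calcium, Gria3, and the kainate receptor subunit Grik2. Of all genes tested, 3.55% passed in this comparison, 1.14% as higher. Gria2 (chromosome 3, 80681450 to 80802835, minus strand, GRCm38) had 376, 537, 526 and 444 CPM in Ch25h+/+ Tau+ and 586, 631, 626 and 642 CPM in Ch25h-/- Tau+. The ranges were separate, and the log2 fold change was 0.40 (SE 0.09, adjusted p = 0.0305 in edgeR).

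Gria3 (chromosome X, 41400854 to 41678601, plus strand) had 196, 234, 218 and 189 CPM in Ch25h+/+ Tau+ and 253, 272, 240 and 264 CPM in Ch25h-/- Tau+. There was no overlap, and the log2 fold change was 0.30 (SE 0.07, adjusted p = 0.0348 in edgeR). For Grik2 (chromosome 10, 49094833 to 49788766, minus strand) the values were 33.8, 41.5, 36.3 and 34.3 CPM against 40.6, 52.5, 55.4 and 54.6 CPM. Here the groups overlapped, since Ch25h-/- Tau+ replicate 1, the rRNA-poor library, lay below Ch25h+/+ Tau+ replicate 2. Grik2 had the largest of these 3 log2 fold changes at 0.47 (SE 0.11, adjusted p = 0.0264 in edgeR).

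The 3 calls were lost when some single libraries were left out. Without Ch25h+/+ Tau+ replicate 1, Gria2 kept its call (log2 fold change 0.30, adjusted p = 0.0496 in edgeR), and Gria3 (adjusted p = 0.0648) and Grik2 (adjusted p = 0.0585) lost theirs. All 3 lost it without Ch25h+/+ Tau+ replicate 4 and without any 1 of Ch25h-/- Tau+ replicates 2, 3 and 4, with adjusted p from 0.0628 to 0.127 in edgeR. With any 1 library left out, the log2 fold change was 0.30 to 0.46 for Gria2 and 0.24 to 0.34 for Gria3. For Grik2 it was 0.42 to 0.55. Leaving out Ch25h-/- Tau+ replicate 1 raised the count from 3 to 11 genes (9.42% of all genes), and leaving out Ch25h+/+ Tau+ replicate 2 raised it to 7 (7.01% of all genes). Without Ch25h+/+ Tau+ replicate 1, 1.49% of all genes passed. Fitted on the 8 Tau+ libraries alone, the 3 genes had adjusted p from 0.0914 to 0.131, and 0 of the 44 and 0.625% of all genes passed.

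An unadjusted p under 0.05 was reached by 22 of the 44 genes in Tau+ mice, which is 50% against 23.9% of all genes. In Ch25h-/- 15 of them were higher and 7 lower (all genes: 11.6% higher and 12.3% lower), and after an adjustment for GC content it was 16 higher and 0 lower. By sign, 31 of the 44 were above 0. With the rRNA class as a term, a fit that rests on 1 rRNA-poor Ch25h-/- library, 33 of the 44 were above 0. The median over the 44 in that fit was 0.09, against 0.00 over all genes. Separate ranges were seen for 5 genes, Gria2, Gria3, Gria4, Grm7 and Cacng8, against a share of 10.2% of all genes. All 4 AMPA receptor subunits had log2 fold changes above 0, from 0.12 to 0.40, and 5 of 6 metabotropic receptors and 10 of 13 scaffolds did. With Ch25h+/+ Tau+ replicate 1 left out, all 4 AMPA receptor subunits, 5 of 6 metabotropic receptors and 7 of 13 scaffolds were above 0. The scaffolds Dlg3, Shank1 and Shank3 were then below 0, at -0.02, -0.13 and -0.11. Nrgn (1213.6 against 1621 CPM, log2 fold change -0.42, adjusted p = 0.0870 in edgeR) and Camk2b were below 0. The median over the 44 was 0.16 against 0.00 over all genes, and 0.08 against 0.01 without Ch25h+/+ Tau+ replicate 1. Homer1 had a log2 fold change of 0.40 here (SE 0.13, adjusted p = 0.0774 in edgeR). This comparison and the tau comparison in Ch25h+/+ share the Ch25h+/+ Tau+ libraries, in which Homer1 was lowest.

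**Figure D3:**
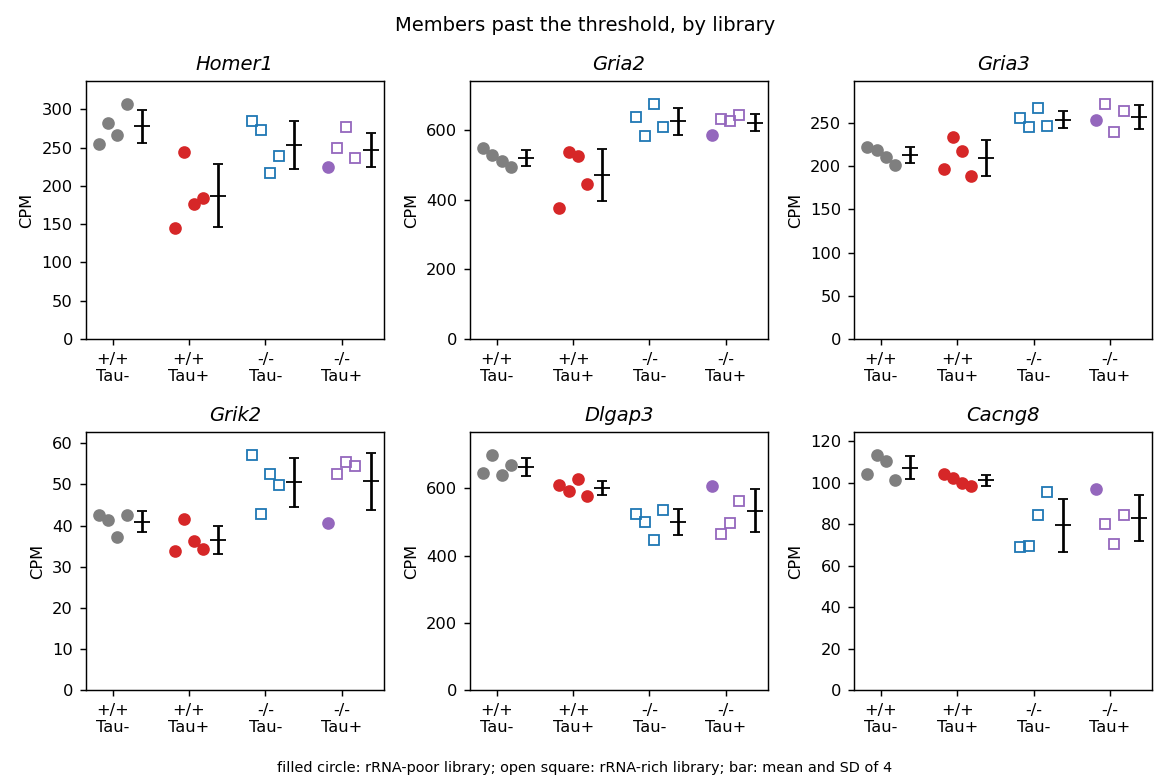
CPM of the 6 genes past the threshold in at least 1 comparison, for each of the 16 libraries, with the mean and SD of each group of 4. Open squares are the rRNA-rich libraries and filled circles the rRNA-poor ones; the filled Ch25h-/- Tau+ point lies lowest of its group for Homer1, Gria2 and Grik2 and highest for Dlgap3 and Cacng8.

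Both comparisons of Ch25h loss followed the GC content of the transcripts. The genes called lower, Dlgap3 and Cacng8, had 63.9% and 65.1% GC, the latter the highest of the 44, and the genes called higher, Gria2, Grik2 and Gria3, had 36.8%, 37.9% and 39.8%. Under 50% GC, 18 of 21 genes had a log2 fold change above 0 in Tau- mice and 20 of 21 in Tau+ mice. From 50% GC upward the counts were 7 of 23 and 11 of 23. All genes tested split in the same direction: under 50% GC, 72.6% were above 0 in Tau- mice and 68.9% in Tau+ mice, against 28.1% and 30.7% from 50% GC upward.

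As a description across the 44 genes, which share their libraries and are not replicates, the Spearman correlation between GC content and log2 fold change was -0.63 for Ch25h loss in Tau- mice and -0.76 in Tau+ mice. Over the 17607 genes with a GC value it was -0.54 and -0.47. For the tau comparisons the correlation over the 44 genes was -0.02 in Ch25h+/+ mice and -0.08 in Ch25h-/- mice. Within a library, the correlation between GC content and the deviation of the 44 genes from their mean over libraries was -0.72 to -0.28 in the 7 rRNA-rich libraries and -0.01 to 0.75 in the 9 rRNA-poor ones. The rRNA-poor Ch25h-/- library had 0.38.

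**Figure D4:**
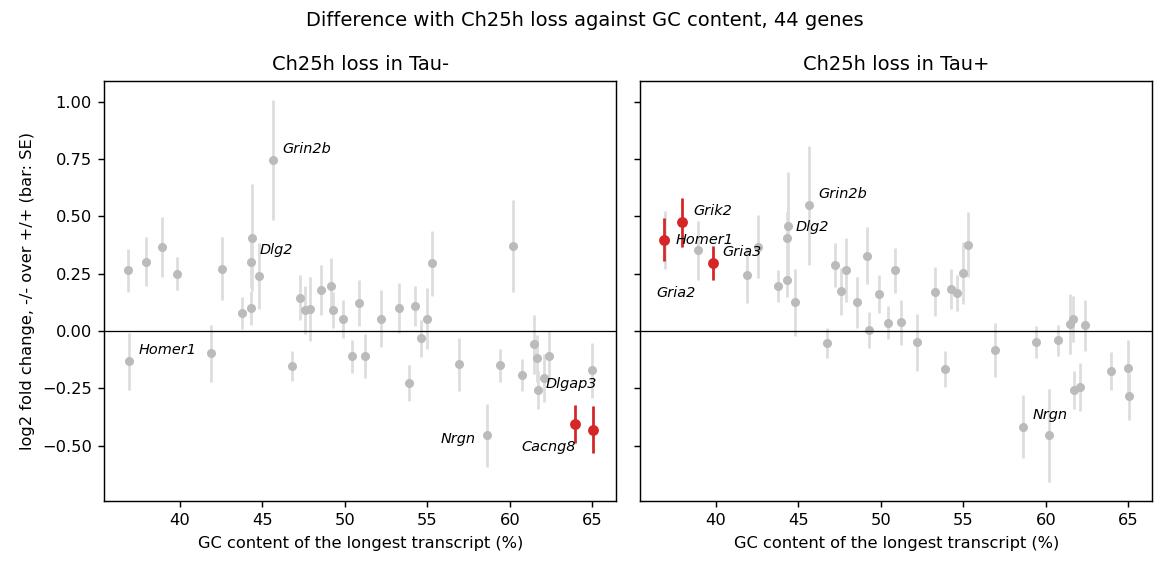
Log2 fold change with Ch25h loss (bar: SE) against the GC content of the longest transcript for the 44 genes, in Tau- and Tau+ mice; genes past the threshold are red. In both, genes under 50% GC lie mostly above 0 and the called genes sit at the ends of the GC range, at 36.8% to 39.8% and at 63.9% to 65.1%.

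When the counts of each library were adjusted for a smooth trend with GC content, 0 of the 44 genes passed the threshold in either comparison of Ch25h loss in edgeR, and 0.0733% and 1.06% of all genes passed. An unadjusted p under 0.05 was reached by 7 of the 44 genes in Tau- mice, against 10.8% of all genes, and by 16 in Tau+ mice, against 15.8%. All 16 were higher in Ch25h-/-, whereas over all genes 8.34% were higher and 7.49% lower, and 38 of the 44 were above 0. The log2 fold changes went from -0.41 to -0.12 for Dlgap3, from -0.43 to -0.14 for Cacng8, from 0.40 to 0.16 for Gria2, from 0.30 to 0.11 for Gria3 and from 0.47 to 0.24 for Grik2. Genes without a call moved toward 0, little, or away from it. In Tau- mice Gria3 went from 0.25 to 0.04, Nrgn from -0.45 to -0.27 and Grin2b from 0.75 to 0.64, while Homer1 went from -0.13 to -0.40 and Dlg4 from -0.15 to -0.24 (each adjusted p = 0.221 in edgeR). In Tau+ mice Homer1 went from 0.40 to 0.16, Nrgn from -0.42 to -0.23, Gria4 from 0.22 to 0.11, Cacng8 from -0.28 to 0.01 and Grm7 from 0.29 to 0.24. The median over the 44 was 0.06 in Tau- mice and 0.15 in Tau+ mice, against -0.01 and 0.01 over all genes. Homer1 with tau in Ch25h+/+ mice was -0.56 with adjusted p = 0.0130 in edgeR, in a fit that called 1.60% of all genes. In that fit 40 of the 44 genes were below 0 for tau in Ch25h+/+ mice, with a median of -0.11 against -0.03 over all genes.

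With the rRNA class as a term in the fit, 0 genes of the 44 passed in the comparisons of Ch25h loss, and 0.00% of all genes in Tau- mice and 0.0564% in Tau+ mice. In Tau+ mice the log2 fold changes in that fit were 0.32 (SE 0.15) for Gria2, 0.28 (SE 0.11) for Gria3 and 0.15 (SE 0.14) for Grik2. In Tau- mice they were -0.15 (SE 0.14) for Dlgap3, -0.12 (SE 0.18) for Cacng8 and 0.21 (SE 0.49) for Grin2b. These estimates rest on the 1 rRNA-poor Ch25h-/- library, so in Tau- mice the class and the genotype cannot be told apart. Within the rRNA-poor class, Ch25h-/- Tau+ replicate 1 against the 4 Ch25h+/+ Tau+ libraries gave log2 fold changes of 0.31 for Gria2, 0.27 for Gria3 and 0.15 for Grik2, each with adjusted p = 0.994 in edgeR, and 0.0465% of all genes passed. With 1 library in an arm few genes can pass, whatever their fold change, and the lone library is assumed to vary like the others.

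The number of the 44 genes called for Ch25h loss moved with the method, and so did the share of all genes. In Tau- mice it was 6 with DESeq2, which called 5.91% of all genes, 9 with limma-voom, which called 7.83%, and 9 in edgeR on the 8 Tau- libraries alone, which called 7.27%. Dlgap3 and Cacng8 were among the genes called by each of these. Without Ch25h+/+ Tau+ replicate 1 the edgeR fit called 6 genes (7.25% of all genes), and without both libraries that stand apart 11 genes (10.2% of all genes). Looser and stricter filters on low counts gave 4 genes (1.54%) and 1 gene (0.946%).

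In Tau+ mice DESeq2 called 8 of the 44 and 8.46% of all genes, and limma-voom 14 of the 44 and 10.6% of all genes. With no filter beyond 1 count it was 5 genes and 2.58%. Gria2 and Grik2 were among the genes called by each of these 3, and Gria3 missed the threshold without the filter (adjusted p = 0.0515 in edgeR).

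Ratios of paired subunits were taken within each library, since subunit exchange alters channel properties and a ratio does not depend on library size. Camk2a to Camk2b, the 2 main CaM kinase II genes of the forebrain, stood at a count ratio of 3.55 ± 0.122 (SD, n = 4) in Ch25h+/+ Tau- and 4.48 ± 0.408 (SD, n = 4) in Ch25h-/- Tau-. The ranges, 3.42 to 3.70 and 3.97 to 4.87, were separate. The difference was 0.33 on the log2 scale, with p = 0.0286 in an exact two-sided permutation test, the smallest p that 4 against 4 libraries can give, and adjusted p = 0.171 over the 12 ratio tests. In Tau+ mice the ratio was 3.48 ± 0.694 and 4.41 ± 0.456 (SD, n = 4 each), a log2 difference of 0.36 with overlap (exact permutation p = 0.0571, adjusted p = 0.206). Without Ch25h+/+ Tau+ replicate 1, whose ratio was the lowest, this difference was 0.20. After the GC adjustment the differences in Tau- and Tau+ mice, over all libraries, were 0.32 and 0.35.

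Gria1 to Gria2, a ratio related to the calcium permeability of AMPA receptors, was 0.602 ± 0.0822 in Ch25h+/+ Tau+ and 0.490 ± 0.0250 in Ch25h-/- Tau+ (SD, n = 4 each). The groups did not overlap, and the log2 difference was -0.29 (exact permutation p = 0.0286, adjusted p = 0.171). After the GC adjustment it was -0.06 with overlap (exact permutation p = 0.514). Grin2b to Grin2a, which falls as synapses mature, was 1.85 ± 0.348 in Ch25h+/+ Tau- and 2.71 ± 0.805 in Ch25h-/- Tau-, then 2.001 ± 0.494 in Ch25h+/+ Tau+ and 2.74 ± 0.519 in Ch25h-/- Tau+ (SD, n = 4 each). The log2 differences were 0.53 and 0.46, each with exact permutation p = 0.0857 and adjusted p = 0.206. The first was 0.34 without Ch25h-/- Tau- replicate 1. None of the 12 ratio tests passed the adjustment, which at least 7 tests at the smallest possible p would have been needed to pass, so the design left little room for a call. Of the 12, the 6 for tau had log2 differences from -0.12 to 0.10.

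**Figure D5:**
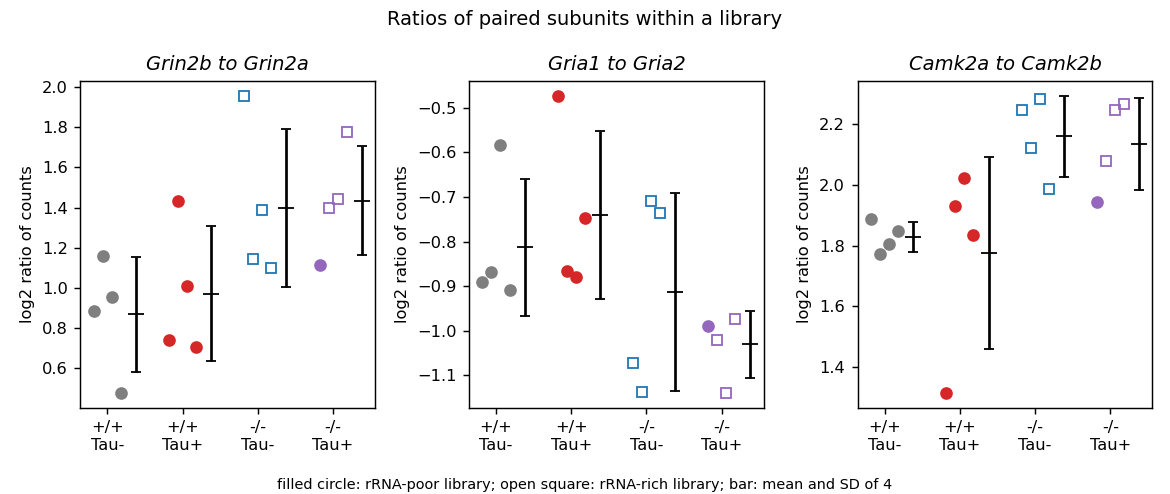
Log2 ratio of counts of 3 pairs of subunits in each library, with the mean and SD of each group of 4; open squares are rRNA-rich and filled circles rRNA-poor libraries. Camk2a to Camk2b lies at 1.77 to 1.89 in Ch25h+/+ Tau- and at 1.99 to 2.28 in Ch25h-/- Tau-, and Ch25h+/+ Tau+ replicate 1 is the low point at 1.31.

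A further list of 45 glutamate receptor and postsynaptic genes outside the 44 was read in the same way, and 43 of them were tested. Grm6, with at most 2 counts in a library, and Grin3b, with at most 21, did not pass the filter on low counts. For tau in Ch25h+/+ mice 0 of 43 passed the threshold in edgeR, and 3 (6.98%) had an unadjusted p under 0.05, against 9.38% of all genes. Of the 43, 38 were below 0 (88.4%, against 52.2% of all genes), with a median log2 fold change of -0.09. With Ch25h+/+ Tau+ replicate 1 left out, 30 of 44 tested were below 0 (68.2%). Baiap2, a scaffold that links receptors to actin, had the smallest p, at 353 ± 19.8 CPM (SD, n = 4) in Ch25h+/+ Tau- and 296 ± 19.8 CPM (SD, n = 4) in Ch25h+/+ Tau+, a log2 fold change of -0.25 (SE 0.07, adjusted p = 0.105 in edgeR). Baiap2 passed the threshold when Ch25h+/+ Tau+ replicate 1 was left out (-0.29, adjusted p = 0.0499 in edgeR, in a fit that called 1.65% of all genes). Gsg1l, an AMPA receptor auxiliary subunit, and the scaffold Dlgap4 followed, at -0.21 (SE 0.08; -0.12 without the same library) and -0.15 (SE 0.07).

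For tau in Ch25h-/- mice 0 of 43 passed in edgeR, and 1 (2.33%) had an unadjusted p under 0.05, against 3.68% of all genes. That gene was Shisa6, an auxiliary subunit of AMPA receptors, at 28.0 ± 15.3 CPM in Ch25h-/- Tau- and 15.2 ± 0.906 CPM in Ch25h-/- Tau+ (SD, n = 4 each), a log2 fold change of -0.88 (SE 0.33, adjusted p = 0.99998 in edgeR). Gsg1l was at -0.16 (SE 0.08) and the scaffold Tanc1 at -0.27 (SE 0.16). Without Ch25h-/- Tau- replicate 3 Shisa6 was at -0.53 and Tanc1 at -0.09. The interaction gave 0 calls of 43 in edgeR, against 0.0338% of all genes, and 0 at an unadjusted p under 0.05, against 4.13%, with Camk2n1, a CaM kinase II inhibitor, at 0.24 (SE 0.12), Dlgap4 at 0.16 (SE 0.09; 0.09 without Ch25h-/- Tau+ replicate 1) and Shisa9 at 0.21 (SE 0.14) as the smallest p-values.

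Camk2n2, the other endogenous CaM kinase II inhibitor, was lower without Ch25h in both tau states. Its mean was 206 ± 7.68 CPM in Ch25h+/+ Tau- and 145 ± 15.4 CPM in Ch25h-/- Tau- (SD, n = 4 each), a log2 fold change of -0.51 (SE 0.10, adjusted p = 0.0320 in edgeR). In Tau+ mice it was 198 ± 22.6 and 142 ± 20.6 CPM (SD, n = 4 each), a log2 fold change of -0.48 (SE 0.10, adjusted p = 0.0176 in edgeR). Lrfn1, a synaptic adhesion protein, fell in Tau- mice by 0.45 on the log2 scale (SE 0.10, adjusted p = 0.0476 in edgeR), and Begain, a partner of PSD-95, was at -0.35 (SE 0.09, adjusted p = 0.0552).

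In Tau+ mice Lrrtm2, an adhesion protein of excitatory synapses, rose by 0.45 on the log2 scale (SE 0.09, adjusted p = 0.0153 in edgeR), from 54.5 ± 5.49 to 74.5 ± 10.4 CPM (SD, n = 4 each). Shisa9 was at 0.32 (SE 0.10, adjusted p = 0.0745). In all, 2 of 43 (4.65%) passed in Tau- mice, against 1.03% of all genes, and 2 of 43 in Tau+ mice, against 3.55%. With 1 library left out, 0 to 6 passed in Tau- mice, 6 of them without Ch25h+/+ Tau+ replicate 1 (7.25% of all genes) and 5 without Ch25h-/- Tau+ replicate 1 (2.78%), and 0 to 5 passed in Tau+ mice. Camk2n2 and Lrfn1 both lost the call in Tau- mice without Ch25h+/+ Tau+ replicate 4, Ch25h-/- Tau+ replicate 4, any 1 of the 4 Ch25h+/+ Tau- libraries or any 1 of Ch25h-/- Tau- replicates 1 to 3. Lrfn1 also lost it without Ch25h+/+ Tau+ replicate 2 or Ch25h-/- Tau+ replicate 2. In those fits the log2 fold change was -0.53 to -0.43 for Camk2n2 and -0.48 to -0.40 for Lrfn1. In Tau+ mice Camk2n2 and Lrrtm2 lost it without Ch25h+/+ Tau+ replicate 4 or any 1 of Ch25h-/- Tau+ replicates 2 to 4, with adjusted p from 0.0521 to 0.0767 in edgeR. Camk2n2 was then at -0.49 to -0.45 and Lrrtm2 at 0.38 to 0.45. The count in Tau+ mice rose to 5 without Ch25h-/- Tau+ replicate 1 (9.42% of all genes) and to 4 without Ch25h+/+ Tau+ replicate 2 (7.01%). Transcript GC was 63.9% for Camk2n2, 63.5% for Lrfn1 and 38.4% for Lrrtm2, so these genes lie at the same ends of the GC range as the called genes among the 44. After the GC adjustment 0 of 43 passed in either tau state. Camk2n2 was then at -0.23 in Tau- mice (adjusted p = 0.232 in edgeR) and -0.20 in Tau+ mice (adjusted p = 0.157), Lrfn1 at -0.18 and Lrrtm2 at 0.23. With the rRNA class as a term 0 of 43 passed as well, with Camk2n2 at -0.13 (SE 0.17) in Tau- mice and -0.21 (SE 0.14) in Tau+ mice, Lrfn1 at -0.08 and Lrrtm2 at 0.14.

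Markers of other cells moved with some of these contrasts. Loss of Ch25h in Tau+ mice came with lower levels of 5 of 6 microglia markers, which summed to 281 to 351 CPM in Ch25h-/- Tau+ against 441 to 559 CPM in Ch25h+/+ Tau+. Cortical excitatory neuron markers, 8 genes, and inhibitory neuron markers, 6 genes, had 0 genes past the threshold in any of the 5 comparisons. In Ch25h-/- Tau- the cortical excitatory markers summed to 1924 to 2389 CPM, below their range in Ch25h+/+ Tau-, with 3 of 8 above 0 (median -0.11). Of the inhibitory markers 0 of 6 were above 0 for tau in Ch25h-/- mice (median -0.05) and 1 of 6 for Ch25h loss in Tau+ mice (-0.07). Choroid plexus markers varied between libraries from 16 to 2738 CPM with 0 of 6 past the threshold. All 6 lay on the same side of 0 in each comparison, with medians of 0.31 and 1.18 for tau in Ch25h+/+ and Ch25h-/- mice, -0.59 and 0.47 for Ch25h loss in Tau- and Tau+ mice, and 0.80 for the interaction. Of 5 hippocampal markers tested, C1ql2 was lower with Ch25h loss in Tau- mice (log2 fold change -0.89, SE 0.21, adjusted p = 0.0497 in edgeR), the comparison in which Dlgap3 and Cacng8 were lower, and the other 4 were above 0 there. Striatal markers, 7 genes, and oligodendrocyte markers, 6 genes, had 0 past the threshold in any of the 5 comparisons. For tau, 0 of 7 striatal markers were above 0 in either genotype (medians -0.34 in Ch25h+/+ and -0.28 in Ch25h-/-). All 6 oligodendrocyte markers were above 0 for tau in both (0.28 and 0.24). Of the striatal markers 2 of 7 were above 0 with Ch25h loss in either tau state (medians -0.43 in Tau- and -0.08 in Tau+). With Ch25h loss, 0 of 6 oligodendrocyte markers were above 0 in either tau state, with medians of -0.24 in Tau- and -0.26 in Tau+. Astrocyte markers, 6 genes with 0 past the threshold in any comparison, were all above 0 for tau in Ch25h+/+ mice (median 0.19), and 1 of 6 was for Ch25h loss in Tau+ mice (-0.17) and 0 of 6 for the interaction (-0.25). Whether these cell types bear on the differences among the 44 genes was not tested.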

How the data were processed

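Bulk RNA-seq was done on 16 libraries of female mice, 4 per group. Per the labels, total RNA went through a column kit and then a SMARTer mRNA-seq library kit. The authors deposited raw counts, 1 per gene and library. The submitters' processing notes name STAR 2.7 and the builds GRCm38 and mm10, with no role given; the counting program, annotation and strand setting are not given in the sources used here. The table holds 105 repeated symbols, none among the genes reported.

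Samples were grouped by the genotype label. Replicate numbers follow record order and pair nothing, and nothing beyond the sample titles says that replicates are separate animals, so p-values measure the spread between these samples. Genes were filtered with filterByExpr (17736 of 54532 entries, at least 99.9% of each library's counts) and tested in R 4.3.3 with edgeR 4.0.16 (TMM, quasi-likelihood F test, two-sided, 1 mean per group over all 16 libraries, 12 residual degrees of freedom), with Benjamini-Hochberg adjustment over all genes at 0.05. CPM used TMM-scaled library sizes. Exon lengths, overlaps and GC content came from GENCODE M21 (GRCm38). Ratios within libraries were compared with exact permutation tests, adjusted over 12 tests.

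Named genes were those past the threshold, the 3 with the smallest p per comparison, the highest and lowest per role and the paired subunits; the additional list gave its 3 smallest p-values per comparison. Genes named beside these, Homer1, Dlgap3, Nrgn and Camk2b outside the comparison that selected them and those with separate ranges, were chosen after their values were seen. The genes and lists were chosen with earlier results of these data known. The fits were tested on simulated data. Alternatives were other size factors, 2 other filters, DESeq2 1.42.0, limma 3.58.1 voom weights, only the libraries compared, the rRNA class (cut at 1000 CPM), GC-adjusted offsets (loess, span 0.5), 1 surrogate variable (sva 3.50.0) and each library left out. Leaving out both libraries that stand apart and the counts by sign without single libraries were added after the data were seen. So were the GC and rRNA class fits of the additional list and the comparison of rRNA-poor libraries in Tau+ mice.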

Additional observations from a re-analysis of the deposited data

Results flagged for a closer look

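In 4 of the 176 sets of 4 libraries (44 genes in 4 groups), 1 library lay far from the other 3; chance alone flags about 1 set in 20. Grin1 in Ch25h-/- Tau- replicate 1 was low at 445 CPM, with the others at 505 to 511 CPM. Grm5, a metabotropic receptor, was low in Ch25h-/- Tau- replicate 2 at 137 CPM, with the others at 183 to 190 CPM. The remaining 2 are in the rRNA-poor library Ch25h-/- Tau+ replicate 1: Grin2c was high at 87.1 CPM against 62.6 to 65.9 CPM, and Dlg1 was low at 171 CPM against 183 to 185 CPM.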

How the results depend on the processing

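No paired analysis was possible because the labels carry no replicate numbers. Under other size factors and 1 surrogate variable the number of the 44 genes past the threshold was the same in each comparison up to a factor of 1.5. For tau in Ch25h+/+ (1 gene) it was 0 with only the libraries compared and 0 without both libraries that stand apart; leaving out 1 library gave 0 to 1. For Ch25h loss in Tau- (2 genes) it was 4 with no filter, 1 with a mean of at least 50 counts, 6 with DESeq2, 9 with limma-voom, 9 with only the libraries compared, 0 with the rRNA class, 0 with GC-adjusted offsets and 11 without both libraries; leaving out 1 library gave 0 to 6, the 6 without Ch25h+/+ Tau+ replicate 1. For Ch25h loss in Tau+ (3 genes) it was 5 with no filter, 8 with DESeq2 and 14 with limma-voom. It was 0 with only the libraries compared, the rRNA class or GC-adjusted offsets, and leaving out 1 library gave 0 to 11. The fit with 1 rRNA-poor Ch25h-/- Tau+ library against 4 could hardly call a gene. With the rRNA class the median of the 44 was -0.01 in Tau- mice and 0.09 in Tau+ mice. Tau in Ch25h-/- and the interaction had 0 calls throughout. Of the ratios, Gria1 to Gria2 for Ch25h loss in Tau- mice went from -0.10 to 0.12 after the GC adjustment. With 1 library left out, the tau differences in Ch25h+/+ ran from -0.053 to 0.20 for Grin2b to Grin2a, from -0.018 to 0.15 for Gria1 to Gria2 and from -0.13 to 0.10 for Camk2a to Camk2b; in Ch25h-/- they ran from -0.078 to 0.22 for Grin2b to Grin2a and from -0.083 to 0.038 for Camk2a to Camk2b, and Gria1 to Gria2 from -0.19 to -0.049. Gria1 to Gria2 for Ch25h loss in Tau- mice ran from -0.17 to -0.024. The cause of each change was not tested. Counting error limits chiefly Homer3, the gene with the fewest counts.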
